A study of Mus musculus with 9 samples.

Results

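Chemokines are small signalling proteins that draw leukocytes into injured tissue. Of 10 chemokine genes chosen by name, 6 were among the 15228 genes listed for cells sorted from the mouse retina as ganglion cells (RGCs), the neurons whose axons form the optic nerve. The 6 were Ccl3, Ccl12, Cxcl12, Cxcl14, Cxcl16 and Cx3cl1. Ccl2, Ccl4, Ccl7 and Cxcl10 were not analysed here. The cells came from wild-type C57BL/6J mice, which were 6 to 8 weeks old when operated on. The Ctrl group was made from normal uninjured retinas. The ONC group was made from retinas 3 d after optic nerve crush (ONC) with an intraocular injection of PBS, the vehicle. The TPEN group was made from retinas 3 d after the same crush with an intraocular injection of 100 μM TPEN, a membrane-permeable chelator of zinc, given right after the crush. Each of the 3 groups had 3 libraries. No injection was named for the Ctrl eyes, so the crush and the injection cannot be told apart in a comparison with Ctrl. The sources used here do not say whether replicate libraries are separate mice, and p-values therefore measure only the spread between these libraries, which may be technical.

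The depth lay between 19946993 and 23109754 reads per library. Levels are given as RPKM, reads per kilobase of exon scaled to the library total, and RPM is the same without the exon length. A count of 0 allows up to 3 reads, which was 0.130 to 0.150 RPM. This floor and all intervals on read numbers cover counting error only. Cells were sorted as positive for the Thy1 antigen and negative for 3 other surface antigens. Of 10 listed RGC markers, 5 had a higher and 5 a lower mean in ONC than in Ctrl. The RGC transcription factor gene Pou4f1 averaged 0.571 RPKM in Ctrl, 0.183 in ONC and 0.241 in TPEN, and Rbpms, a pan-RGC marker, averaged 0.605, 0.393 and 0.319 RPKM. The neurofilament gene Nefm averaged 49.5, 60.2 and 44.8 RPKM, and Thy1 itself 4.74, 5.35 and 7.12 RPKM. The summed level of 7 rod markers was 16549 to 19639 RPKM in the 9 libraries, and that of 10 RGC markers was 290.1 to 394.6 RPKM. The name RGCs therefore stands for the cells as sorted.

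Chemokines are divided by the spacing of their first cysteines. CC chemokines such as Ccl3 and Ccl12 are typically induced in activated microglia and macrophages and attract monocytes and other leukocytes. CXC chemokines include the neutrophil attractants and also Cxcl12, a constitutive ligand of Cxcr4 that guides neurons and blood cells, and Cxcl14. Cxcl16 and Cx3cl1 are made as membrane-anchored proteins from which Adam10 and Adam17 release a soluble chemokine, and Cx3cl1 on neurons signals to Cx3cr1 on microglia. In bulk RNA of sorted cells, more cells of a type and more RNA per cell cannot be told apart.

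The family signature can be read in the coding sequence of the 6 genes, and the stretches that carry it are printed to show how the members differ. They come from the GENCODE M21 transcripts (GRCm38) with the longest reading frame, are given 5′ to 3′ on the coding strand, and have the paired cysteine codons in capitals. All 6 stretches lie in the coding part of exon 2.
Ccl3, chr11:83648634-83648675, minus strand: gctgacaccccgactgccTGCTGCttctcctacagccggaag
Ccl12, chr11:82102616-82102657, plus strand: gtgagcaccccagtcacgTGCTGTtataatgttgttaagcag
Cxcl12, chr6:117171490-117171534, plus strand: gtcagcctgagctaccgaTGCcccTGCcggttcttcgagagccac
Cxcl14, chr13:56295897-56295929, minus strand: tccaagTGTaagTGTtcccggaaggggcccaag
Cxcl16, chr11:70459109-70459153, minus strand: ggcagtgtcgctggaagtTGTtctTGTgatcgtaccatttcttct
Cx3cl1, chr8:94778033-94778083, plus strand: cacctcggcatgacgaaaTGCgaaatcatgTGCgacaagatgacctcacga
The cysteine codons are adjacent in the CC genes, separated by 1 codon in the CXC genes and by 3 codons in Cx3cl1. The reading frame held 92 codons in Ccl3 and 104 in Ccl12, against 246 in Cxcl16 and 395 in Cx3cl1, the members with a membrane anchor.

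The first question was what the crush did to chemokine transcripts. Ccl3 and Ccl12 rose strongly from low levels in Ctrl, by 8.65-fold and 12.9-fold on the fitted scale. The constitutive Cxcl14 and the membrane-anchored Cxcl16 did not pass the test. Cxcl12 and the membrane-anchored Cx3cl1 fell under a filter on low values. In a model without that filter, Cxcl12 was called up and Cx3cl1 was not called. Of the 4 members with a mean of at least 0.5 RPKM, 2 were upregulated in ONC against Ctrl, beside 4.58% of all 13566 genes tested. Calls were made with limma and needed both an adjusted p below 0.05 and a change of 1.5-fold or more. None of the 4 was downregulated, beside 0.752% of all genes, and voom on the recovered reads likewise called 2 up and 0 down. At an unadjusted p under 0.05, limma gave 3 up and 0 down. Ccl12 passed the filter on low values only through the crushed groups. Both Ccl3 and Ccl12 exceeded 1 RPM, which every listed gene did in at least 2 libraries, only in crushed libraries. The count of 2 of 4, and tests of these 2 genes that include Ctrl, are therefore not support on their own.

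The second question was what TPEN changed in the crushed retina. Ccl3 fell to 42.5% ± 7.03 (SD, n = 3) of the ONC mean and was the only member called lower in TPEN than in ONC, 1 of 4 beside 1.21% of all genes. No member was called higher (0 of 4, beside 0.818% of all genes, with 0 by voom and 0 at an unadjusted p under 0.05). Against Ctrl, Ccl3 and Ccl12 remained upregulated in TPEN, 2 of 4 beside 3.45% of all genes, and none was downregulated, beside 0.457%. The unadjusted test and voom gave the same numbers, 2 up and 0 down. As for ONC, the count of 2 of 4 against Ctrl is not support on its own. The comparisons share libraries and are not independent of each other.

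**Figure D1:**
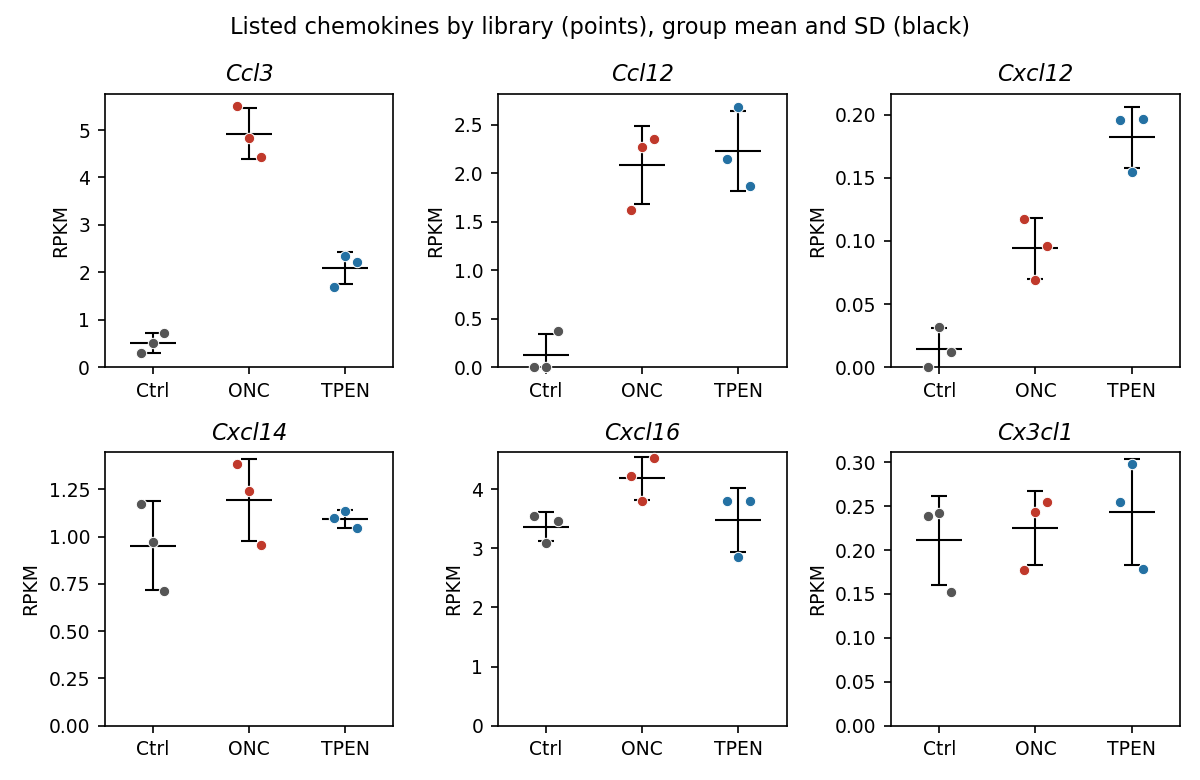
RPKM (y axis, linear from 0) of the 6 listed chemokines in the 3 libraries of each group (points), with the group mean and SD in black. Ccl3 is highest in ONC and intermediate in TPEN, Ccl12 is at a like level in both crushed groups, and Cxcl12 lies highest in TPEN at 0.154 to 0.196 RPKM.

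Ccl3 encodes a CC ligand of Ccr1 and lies at chr11:83647844-83649355 on the minus strand (GRCm38). Its level was 0.291, 0.508 and 0.715 RPKM in the Ctrl libraries, from 5, 9 and 11 reads. It was 5.51, 4.83 and 4.43 RPKM in ONC, from 97, 85 and 78 reads. It was 1.70, 2.35 and 2.23 RPKM in TPEN, from 26, 40 and 34 reads. The 3 groups did not overlap, with every TPEN library between the highest Ctrl and the lowest ONC library. The log2 fold change of ONC against Ctrl was 3.11 (SE 0.24), with an adjusted p of 1.58e-05 by limma. That of TPEN against ONC was -1.20 (SE 0.24, 95% interval -1.74 to -0.66), with an adjusted p of 0.0160. TPEN remained above Ctrl by 1.91 on the log2 scale, with an adjusted p of 0.000646 by limma. An exact permutation test with 280 arrangements of the group labels gave p = 0.00357 for a difference between the groups, the smallest it can give. The call of TPEN against ONC rested on few libraries: the adjusted p by limma was 0.0661 without ONC replicate 1, 0.0550 without ONC replicate 2 and 0.0596 without TPEN replicate 1. The log2 fold change stayed between -1.29 and -1.07 when any library was left out.

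Ccl12, which encodes a ligand of Ccr2 that attracts monocytes, lies at chr11:82101845-82103400 on the plus strand. It had 0, 0 and 4 reads in the Ctrl libraries, or 0, 0 and 0.371 RPKM. The ONC libraries had 1.62, 2.27 and 2.35 RPKM from 20, 28 and 29 reads, and the TPEN libraries 2.14, 2.68 and 1.87 RPKM from 23, 32 and 20 reads. Every crushed library was above every Ctrl library, and the ONC and TPEN libraries overlapped. The log2 fold change was 3.68 (SE 0.52) for ONC against Ctrl, with an adjusted p of 0.000827 by limma, and 3.78 for TPEN against Ctrl, with an adjusted p of 0.00106. The fold depends on the pseudocount where a group has so few reads. The pooled reads, 77 in ONC and 4 in Ctrl, gave a ratio of RPM of 18.3 with a 95% counting interval of 6.87 to 68.9. TPEN and ONC differed by 0.10 on the log2 scale, with a 95% interval of -1.06 to 1.26 and an adjusted p of 0.941 by limma. The value of -1.20 seen for Ccl3 lay just outside that interval, but the 95% interval of Ccl3, -1.74 to -0.66, overlapped it. The exact test over the 3 groups gave p = 0.025. Ccl12 was listed and passed the filter only through the crushed groups, so this p and the calls against Ctrl are not support on their own.

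The ratio of Ccl3 to Ccl12 within each library was compared over the groups, a comparison chosen after the values were seen. The log2 ratio was 1.71, 1.06 and 0.89 in ONC and -0.32, -0.18 and 0.24 in TPEN. The ranges did not overlap, and TPEN differed from ONC by -1.30 on the log2 scale. In Ctrl the ratio was 1.97, 2.61 and 0.79, where Ccl12 had at most 4 reads. The exact permutation test over the 3 groups gave p = 0.05, or 0.075 adjusted over the 3 ratios compared, and the exact test of TPEN against ONC gave p = 0.1, the smallest that 3 against 3 allows. The permutation p over the 3 groups was 0.0429 without Ctrl replicate 2 and 0.00714 without Ctrl replicate 3. At the threshold of 0.05 the adjusted test over the 3 groups was not passed. That test includes Ctrl, and 3 against 3 cannot reach the threshold. Whether the CC pair responded unequally to TPEN was therefore not decided.

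Cxcl12, at chr6:117168535-117181367 on the plus strand, was the rarest listed member and fell under the filter of 0.5 RPKM. Its values come from the same model fitted without that filter. The Ctrl libraries held 0, 6 and 2 reads (0, 0.0318 and 0.0122 RPKM). The ONC libraries held 22, 13 and 18 reads (0.117, 0.0692 and 0.0959 RPKM), and the TPEN libraries 32, 28 and 32 reads (0.196, 0.154 and 0.196 RPKM). The 3 groups did not overlap, and every TPEN library was above every ONC library, which was above every Ctrl library. It was upregulated in ONC against Ctrl, with a log2 fold change of 0.76 (SE 0.18) and an adjusted p of 0.0139 by limma, where 6.19% of all 15228 genes were upregulated. It was also upregulated in TPEN against Ctrl, with 1.30 and an adjusted p of 0.00103, beside 4.5% of all genes. Without the filter no listed member was downregulated against Ctrl, beside 0.847% of all genes in ONC and 0.499% in TPEN, none was upregulated in TPEN against ONC, beside 0.992%, and Ccl3 remained the 1 downregulated there, beside 1.85%. TPEN exceeded ONC by 0.54 (95% interval 0.14 to 0.94), which was not called (adjusted p = 0.103 by limma). These folds are small because the pseudocount of 0.1 RPKM is as large as the levels. In pooled reads, the RPM in ONC was 6.31 times that in Ctrl (95% counting interval 2.98 to 15.4), and that in TPEN 1.92 times that in ONC (1.36 to 2.75). The exact test over the 3 groups gave p = 0.00357. Cxcl12 exceeded 1 RPM only in TPEN (1.26 to 1.60 RPM), with at most 0.957 RPM in ONC and 0.260 in Ctrl. Every listed gene had over 1 RPM in at least 2 libraries, so Cxcl12 was listed only through TPEN. Its place as highest in TPEN, and its tests that include TPEN, are therefore not support on their own. The ONC call was lost without Ctrl replicate 1 (adjusted p = 0.0550 by limma), without ONC replicate 1 (0.0547), with quantile normalization (0.654) and with a pseudocount of 1 RPKM (0.0890).

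Cxcl14, a CXC chemokine made constitutively in many tissues, lies at chr13:56288647-56296551 on the minus strand. It had 1.17, 0.973 and 0.710 RPKM in Ctrl, 1.38, 1.24 and 0.955 in ONC and 1.10, 1.14 and 1.05 in TPEN. All groups overlapped. ONC differed from Ctrl by 0.31 on the log2 scale (95% interval -0.11 to 0.72, adjusted p = 0.296 by limma), and TPEN from ONC by -0.10 (-0.52 to 0.31, adjusted p = 0.800). The exact test over the 3 groups gave p = 0.371. The log2 ratio of Cxcl12 to Cxcl14 within a library was 0.65 higher in TPEN than in ONC, with -2.77, -2.99 and -2.43 in ONC and -2.02, -2.28 and -1.95 in TPEN. Its exact permutation p over the 3 groups, Ctrl included, was 0.00714, or 0.0214 adjusted over 3 ratios. Because Cxcl12 was listed only through TPEN, this p is not support on its own. The exact test of TPEN against ONC gave p = 0.1, the smallest that 3 against 3 allows. With a pseudocount of 1 RPKM the test over the 3 groups was no longer passed (permutation p = 0.361), nor was it with quantile normalization (0.075).

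The membrane-anchored members moved little. Cxcl16, a Cxcr6 ligand, lies at chr11:70453983-70459984 on the minus strand and shares 552 bases with Zmynd15 on the plus strand. The counting is not stated to have used strand, so the reads of these genes cannot be told apart in the shared bases. Cxcl16 had 3.54, 3.09 and 3.46 RPKM in Ctrl, 4.22, 3.80 and 4.53 in ONC, and 3.79, 2.86 and 3.80 in TPEN. Every ONC library was above every Ctrl library, and the lowest ONC and highest TPEN libraries were both at 3.80 RPKM. ONC exceeded Ctrl by 0.30 on the log2 scale (95% interval 0.03 to 0.57), with an unadjusted p of 0.0307 and an adjusted p of 0.114 by limma. TPEN differed from ONC by -0.27 (-0.53 to 0.00390, adjusted p = 0.234). The exact test over the groups gave p = 0.107, and 0.0286 without TPEN replicate 2.

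Cx3cl1, at chr8:94772009-94782427 on the plus strand, fell under the filter. It held 21, 22 and 12 reads in Ctrl, 16, 22 and 23 in ONC and 20, 26 and 14 in TPEN, between 0.152 and 0.298 RPKM. All groups overlapped. In the model without the filter, ONC differed from Ctrl by 0.07 on the log2 scale (95% interval -0.38 to 0.52) and TPEN from ONC by 0.07 (-0.38 to 0.52). On this scale the pseudocount shrinks the fold of so rare a gene. The ratio of pooled RPM was 1.06 for ONC against Ctrl (95% counting interval 0.721 to 1.55) and 1.09 for TPEN against ONC (0.751 to 1.58), and changes within these intervals were not detectable at this depth. The exact test over the groups gave p = 0.668.

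**Figure D2:**
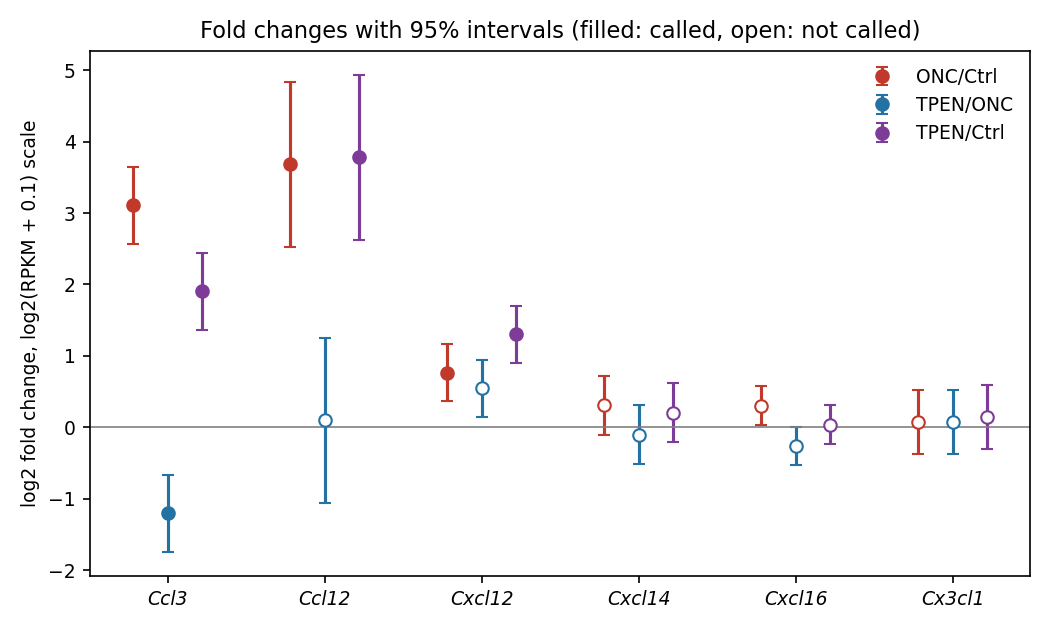
Log2 fold change on the log2(RPKM + 0.1) scale (y axis) of each listed chemokine (x axis) in ONC against Ctrl (red), TPEN against ONC (blue) and TPEN against Ctrl (purple), with 95% intervals from limma; Cxcl12 and Cx3cl1 are from the model without the filter. Filled points were called, and Ccl3 at -1.20 is the only filled point of TPEN against ONC.

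RPKM allows levels of different genes to be set side by side. In Ctrl the order of the mean level was Cxcl16 (3.37 RPKM), Cxcl14 (0.953), Ccl3 (0.505), Cx3cl1 (0.211), Ccl12 (0.124) and Cxcl12 (0.0146). Of the neighbours in this order, Cxcl14 and Ccl3 overlapped, as did Cx3cl1, Ccl12 and Cxcl12. In ONC Ccl3 stood first at 4.92 ± 0.544 RPKM (SD, n = 3), its range overlapping that of Cxcl16 at 4.18 ± 0.362, and Ccl12 came next at 2.08 ± 0.401. In TPEN Cxcl16 was first again at 3.48 ± 0.540, while Ccl12 (2.23 ± 0.415) and Ccl3 (2.09 ± 0.346) overlapped. Both Ccl3 and Ccl12 were above Cxcl14 without overlap in ONC and in TPEN, and had lower means than Cxcl14 in Ctrl.

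The receptors were examined next. Of 24 chemokine receptor genes, 9 were listed and 6 passed the filter. In ONC against Ctrl, 1 of the 6 was upregulated and 1 downregulated, beside 4.58% and 0.752% of all genes. The median log2 fold change of the 6 was -0.36, beside 0.02 over all genes tested. Cx3cr1, the receptor of Cx3cl1 and a gene of microglia, had 0.772, 0.711 and 0.420 RPKM in Ctrl, 4.31, 3.99 and 3.74 in ONC and 3.13, 2.67 and 2.80 in TPEN. No group overlapped another. Its log2 fold change was 2.52 in ONC against Ctrl (adjusted p = 9.35e-06 by limma) and -0.47 in TPEN against ONC (adjusted p = 0.155), which was not called. The ligand Cx3cl1 and its receptor thus gave 0.07 and 2.52 in the same comparison.

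Ccrl2, an atypical receptor gene under the filter, held 2, 0 and 0 reads in Ctrl, 24, 23 and 32 in ONC and 0, 4 and 0 in TPEN. The pooled RPM in ONC was 37.6 times that in Ctrl (95% counting interval 10.1 to 316), and that in TPEN 0.0561 times that in ONC (0.0149 to 0.150). Without the filter it was upregulated in ONC against Ctrl and downregulated in TPEN against ONC (adjusted p = 0.000135 and 0.000829 by limma), and with a pseudocount of 1 RPKM both were under the fold threshold, at 0.51 and -0.49. Ccrl2 exceeded 1 RPM only in ONC, with at most 0.180 RPM in the other groups, and was thus listed only through ONC. These calls are therefore not support on their own.

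Among other receptors, the gut-homing receptor gene Ccr9 was the 1 of the 6 upregulated in TPEN against ONC, beside 0.818% of all genes. It had 1.53, 1.46 and 1.64 RPKM in ONC and 2.56, 2.31 and 2.54 in TPEN, a log2 fold change of 0.65 (adjusted p = 0.00299 by limma). With a pseudocount of 1 RPKM it was 0.45 and under the fold threshold. Gpr35 was the receptor downregulated in ONC against Ctrl (-0.67, adjusted p = 0.00943), a call lost without ONC replicate 1 (-0.58) or with a pseudocount of 1 RPKM (-0.31). The decoy receptor gene Ackr1 had 2.29, 0.955 and 1.63 RPKM in Ctrl, 1.70, 0.837 and 1.02 in ONC and 1.99, 1.73 and 1.75 in TPEN, and was not called in these comparisons. Ccr1, Ccr2, Cxcr3, Cxcr4, Cxcr6 and Ackr3 were not analysed here.

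Other chemokine ligands gave a setting for the members. Of 29 such genes, 7 were listed and 6 tested. In ONC against Ctrl, Ccl6, Ccl9, Cxcl2 and Pf4 were upregulated and none was downregulated, beside 4.58% and 0.752% of all genes. These 4 had Ctrl means under 0.5 RPKM and passed the filter on low values only through the groups where they were high. In TPEN against ONC, 3 of the 4 were downregulated and no ligand upregulated, beside 1.21% and 0.818%. In TPEN against Ctrl, 1 of the 4 was upregulated and no ligand downregulated, beside 3.45% and 0.457%. Because of the filter, these numbers are not support on their own.

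Ccl6, a macrophage chemokine gene, had 0.149, 0.145 and 0.166 RPKM in Ctrl, 3.27, 3.93 and 4.15 in ONC and 1.12, 1.003 and 1.12 in TPEN. Its log2 fold change was 3.93 in ONC against Ctrl and -1.71 in TPEN against ONC (adjusted p = 3.45e-08 and 5.78e-05 by limma). Like Ccl3, it stayed above Ctrl in TPEN, by 2.22. Ccl9 rose by 1.62 in ONC (adjusted p = 0.00218) and differed by -0.85 in TPEN against ONC (adjusted p = 0.0918), where voom called it at -0.95.

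Cxcl2, a neutrophil attractant gene, had 2, 4 and 0 reads in Ctrl, 181, 174 and 199 in ONC and 6, 6 and 4 in TPEN. The pooled RPM in ONC was 87.9 times that in Ctrl (95% counting interval 40.1 to 241), and that in TPEN 0.0320 times that in ONC (0.0182 to 0.0525). The limma values were 4.85 and -4.16 (adjusted p = 5.51e-07 and 8.69e-06). Cxcl3, a close relative of Cxcl2, had 60, 38 and 38 reads in ONC and no read in any Ctrl or TPEN library. Against a floor of 3 reads per library, its mean RPM in ONC was at least 14.3-fold higher than in Ctrl and at least 13.6-fold higher than in TPEN. Cxcl3 was under the filter and was called in both comparisons without it. It was listed only through ONC, so these calls are not support on their own. Pf4, a chemokine gene of platelets and some macrophages, had 0, 2 and 0 reads in Ctrl, 16, 40 and 35 in ONC and 2, 0 and 0 in TPEN, and was upregulated in ONC and downregulated in TPEN against ONC (adjusted p = 0.000408 and 0.00165 by limma). Set beside these ligands, every TPEN library of Ccl3, Ccl6 and Cxcl2 lay between the Ctrl and ONC libraries, the TPEN and Ctrl libraries of Pf4 overlapped, those of Cxcl3 had no read, and the TPEN and ONC libraries of Ccl12 overlapped. Cxcl2 in TPEN had 2.94 times the Ctrl mean, which was not called (unadjusted p = 0.0130, adjusted p = 0.0779 by limma). The highest Ctrl and the lowest TPEN library of Cxcl2 both held 4 reads, so their separation rests on library depth only.

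**Figure D3:**
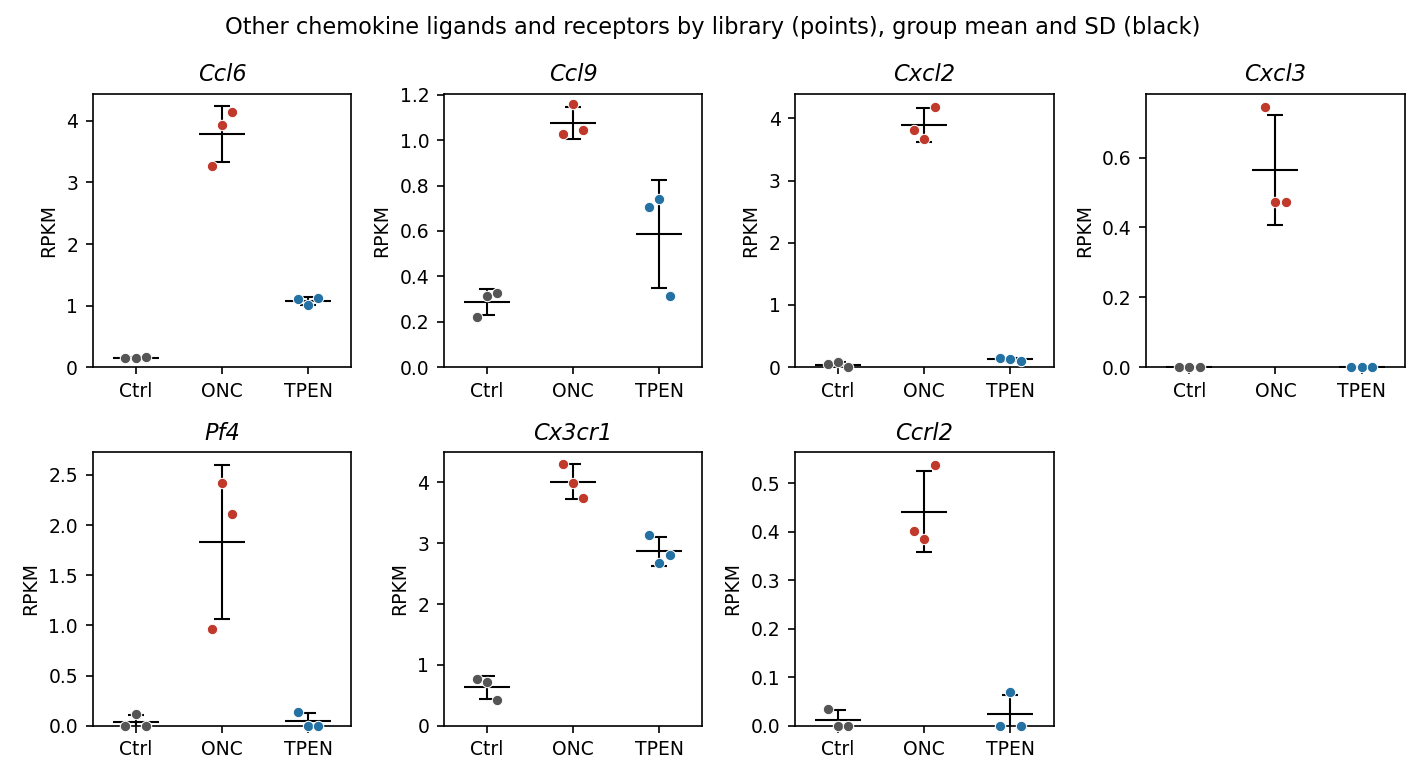
RPKM (y axis, linear from 0) of 5 other chemokine ligand genes and 2 receptor genes in the 3 libraries of each group (points), with the group mean and SD in black. Cxcl2, Cxcl3, Pf4 and Ccrl2 are near 0 in Ctrl and TPEN, while Ccl6 and Cx3cr1 in TPEN lie between Ctrl and ONC.

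Of 22 genes of receptor signalling and ligand processing, 16 were listed and 13 tested. In ONC against Ctrl 3 were upregulated and none downregulated, beside 4.58% and 0.752% of all genes. In TPEN against ONC 2 were downregulated and none upregulated, beside 1.21% and 0.818%. Rgs1 and Vav1, among the 3 upregulated and also the 2 downregulated, had Ctrl means under 0.5 RPKM. They passed the filter only through the crushed groups. Rgs1, a regulator of G protein signalling in leukocytes, gave 2.41 and -1.48 (adjusted p = 3.02e-05 and 0.00269 by limma). Vav1, a haematopoietic exchange factor, gave 3.24 and -1.26 (adjusted p = 3.87e-06 and 0.00578). Cmtm6 rose by 0.70 in ONC (adjusted p = 0.000243) and was under the fold threshold with a pseudocount of 1 RPKM, at 0.54. Dock2, under the filter, was upregulated in ONC by 1.82 without it (adjusted p = 0.000532), and not with a pseudocount of 1 RPKM, at 0.41. Dock2 exceeded 1 RPM only in crushed libraries, so this call is not support on its own. The genes of the sheddases were level, with log2 fold changes of 0.08 for Adam10 and 0.06 for Adam17 in ONC against Ctrl (adjusted p = 0.459 and 0.758). Adam10 had 7.27 to 8.03 RPKM in Ctrl and 7.53 to 8.77 in ONC.

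Markers of some other cell types also differed between the groups. Of 15 microglia and macrophage markers, 14 were listed and 13 tested. All 13 were upregulated in ONC against Ctrl and in TPEN against Ctrl, where 4.58% and 3.45% of all genes were, and 6 were downregulated in TPEN against ONC, where 1.21% were. Of the 13, 9 had Ctrl means under 0.5 RPKM and passed the filter only through the crushed groups. None of these numbers, that of TPEN against ONC included, is therefore support on its own. The summed level of the 14 listed markers was 9.05 to 9.60 RPKM in Ctrl, 57.0 to 59.2 in ONC and 32.7 to 35.4 in TPEN, so that TPEN held 58.1% of the ONC mean. The sum of 2 listed monocyte markers (of 6) was 0.359 to 0.470, 4.02 to 4.70 and 0.823 to 1.06 RPKM, of which Fn1 alone was tested and was called up in ONC against Ctrl and down in TPEN against ONC. The neutrophil list had 1 of 7 genes listed, Csf3r, at 0.124 to 0.223, 0.989 to 1.13 and 0.250 to 0.511 RPKM. Fn1 and Csf3r also passed the filter only through the crushed groups. The 3 listed astrocyte markers (of 4) summed to 5.54 to 6.21, 27.2 to 28.3 and 17.3 to 20.0 RPKM. The part of these cells in the chemokine values was not tested.

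The other lists had few calls. In ONC against Ctrl, 1 of 8 Müller glia markers, Vim, was upregulated, beside 4.58% of all genes. Of the endothelial and pericyte (4 tested), RGC (7), rod (7), amacrine (3) and bipolar (6) markers that passed the filter, none was called in either direction. Over all genes, 4.58% were upregulated and 0.752% downregulated there. None of these 6 lists had a call in TPEN against ONC, beside 0.818% of all genes upregulated and 1.21% downregulated. With 3 to 8 genes tested per list, counts of 0 are near these shares and do not show that a list was unchanged. Without the filter, the RGC marker Pou4f1 was downregulated in ONC against Ctrl (-1.30 on the log2 scale, adjusted p = 0.0108 by limma). The 10 listed RGC markers summed to 364.1 to 374.1 RPKM in Ctrl, 372.6 to 394.6 in ONC and 290.1 to 304.3 in TPEN, so that TPEN held 77.2% of the ONC mean. The summed Müller glia markers were 388.4 to 403.3 RPKM in Ctrl, 357.6 to 359.1 in ONC and 310.5 to 327.0 in TPEN.

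The level of Ccl3 relative to the microglia and macrophage markers, again a comparison chosen after the values were seen, moved less than Ccl3 itself. The log2 ratio of Ccl3 to the 14 summed markers was -4.55, -3.96 and -3.57 in Ctrl, -3.36, -3.53 and -3.71 in ONC and -4.20, -3.74 and -3.93 in TPEN. TPEN differed from ONC by -0.42 without overlap, against -1.20 for Ccl3 itself. The exact permutation test over the 3 groups gave p = 0.232, and that of TPEN against ONC p = 0.1, the smallest it allows.

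**Figure D4:**
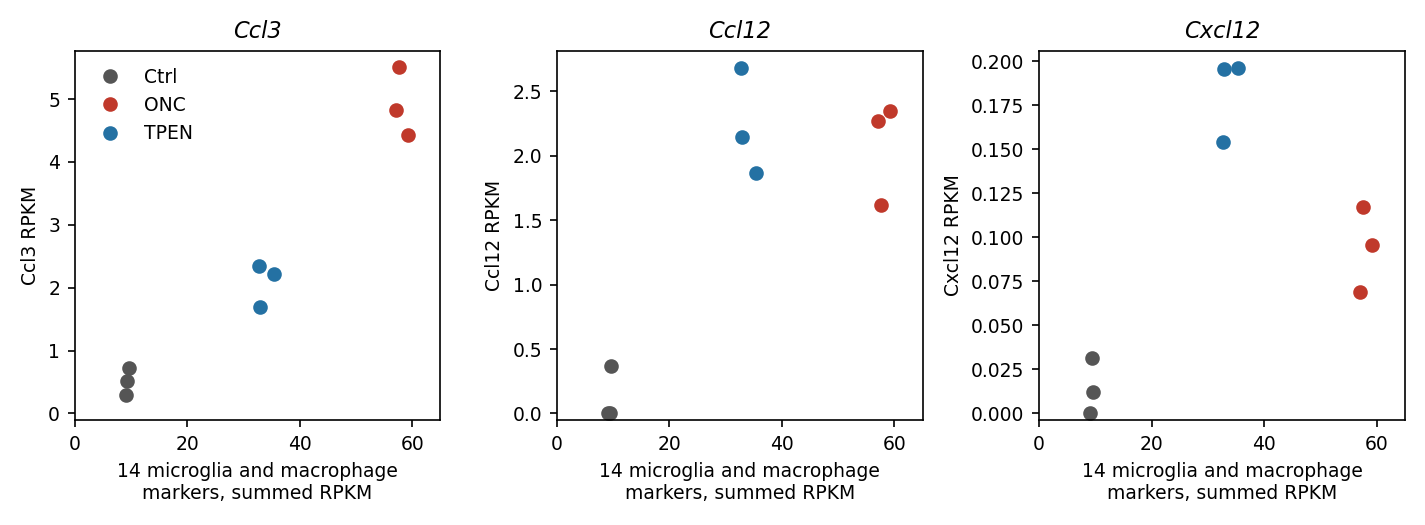
RPKM of Ccl3, Ccl12 and Cxcl12 (y axes, linear) against the summed RPKM of 14 microglia and macrophage markers (x axis) in each of the 9 libraries, coloured by group. Ccl3 is higher where the sum is higher, from Ctrl over TPEN to ONC, whereas Ccl12 and Cxcl12 are not lower in TPEN (sums of 32.7 to 35.4) than in ONC (57.0 to 59.2).

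The genes whose pattern over the 9 libraries lay closest to a member were found from the root mean square difference of log2(RPKM + 0.1) after subtracting each gene's own mean. For Ccl3 they were Gm21970 (0.255), Vsir (0.265) and Myo1f (0.288), where the median over all genes was 1.31. For Ccl12 they were Bin2 (0.620), Gadd45b (0.652) and C1qa (0.677), beside a median of 1.87. Ccl12 had 0, 0 and 4 reads in Ctrl and a wider range than Ccl3 (4.80 against 3.84 on the log2 scale). Its larger distances are therefore not on equal terms with those of Ccl3. For Cxcl12 they were mt-Ts2 (0.154), Gem (0.158) and mt-Th (0.167), beside 0.566. For Cx3cl1 they included Fkbp1a (0.0973) and Pih1d2 (0.105), beside 0.246. The lists for Ccl3 and Ccl12 were added after the values were seen.

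Several of the ligands that rose are neighbours on chromosome 11. Ccl9 and Ccl6 are 9.245 kb apart, and Ccl6 and Ccl3 54.756 kb. Ccl12 lies 1544.443 kb from Ccl3 in another group of chemokine genes, and Cxcl16 lies 11641.86 kb from Ccl12. The neighbours Ccl9, Ccl6 and Ccl3 had -0.85, -1.71 and -1.20 in TPEN against ONC, where Ccl9 was not called. The more distant Ccl12 had 0.10. A part of the position in these values was not tested.

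The promoters of Ccl3 and Ccl12, the 2 members called up in ONC against Ctrl among those tested, are printed for comparison. Each is the 250 bases before the RefSeq start (GRCm38.p6), 5′ to 3′ on the strand of the gene, with motif matches in capitals.
Ccl3, chr11:83649379-83649628, minus strand: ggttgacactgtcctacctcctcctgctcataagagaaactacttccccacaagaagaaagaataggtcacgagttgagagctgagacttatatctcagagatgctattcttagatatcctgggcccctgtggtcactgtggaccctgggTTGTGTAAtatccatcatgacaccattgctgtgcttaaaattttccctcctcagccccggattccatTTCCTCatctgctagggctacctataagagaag
Ccl12, chr11:82101595-82101844, plus strand: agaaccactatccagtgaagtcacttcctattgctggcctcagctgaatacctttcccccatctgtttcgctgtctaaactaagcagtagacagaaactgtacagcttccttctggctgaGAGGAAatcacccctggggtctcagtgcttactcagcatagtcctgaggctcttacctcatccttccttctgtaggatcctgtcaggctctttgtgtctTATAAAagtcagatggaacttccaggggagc
Both strands were searched. The TATA box was searched as TATAAA. The AP-1 motif was searched as TGANTCA and the PU.1 motif as GAGGAA. The C/EBP motif was searched as TTNNGNAA. The NF-kB and ISRE motifs were searched as well. In Ccl3 the C/EBP letters start 100 bases before the start and the PU.1 letters, on the other strand, 33 bases before it. In Ccl12 the PU.1 letters start 130 bases and the TATA box letters 31 bases before the start. Of 32851 promoters of this length, 36.8% held the C/EBP letters, 23.3% the PU.1 letters and 12.4% the TATA box letters, so the first pair is common. The AP-1, NF-kB and ISRE motifs, held by 6.75%, 4.65% and 2.98% of promoters, were not in these windows. A match describes letters only.

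Reads of near-identical copies could be split in counting, so similar transcripts were searched for. In a search of the transcript of each member against all GENCODE M21 transcripts, the best match of Ccl12 outside its own gene was Ccl8, with 70.2% identity over 339 of 537 bases. For Ccl3, Cxcl12 and Cxcl14 no other gene matched, and for Cxcl16 the best match was the 552 bases shared with Zmynd15.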

How the data were processed

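The authors sequenced RNA of sorted cells (2 μg per library, a stranded mRNA kit with molecular identifiers), trimmed reads with a tool named as Trimmomatic 0.36 in the submitters' processing notes, mapped them to GRCm38/mm10 with STAR and compared groups with edgeR. They deposited RPKM values, normalized to exon length and library size, for 15228 genes, beside their own log2 fold changes, p-values and FDR from edgeR, which were not used. The counting program, annotation, use of strand and collapsing of molecular identifiers are not given in the sources used here. RPKM times length was a whole multiple of 1 step per library for 100% of values (tolerance 0.001 reads), which gave reads and totals. Every listed gene had over 1 RPM in at least 2 libraries, so the listing itself is a filter on reads. Of the read numbers from 1 to 100, 58.3% were even. If both reads of a pair were counted, which was not tested, counting intervals are too narrow.

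After a filter on the mean (0.5 RPKM or more, 13566 genes), log2(RPKM + 0.1) was fitted with limma 3.58.1 (trend) on all 9 libraries, with Benjamini-Hochberg adjustment over all genes tested. Calls needed an adjusted p below 0.05 and a 1.5-fold change. Single values and ratios were tested with the exact permutation test (two-sided, F ratio) over 280 arrangements, and adjusted p-values of ratios cover the 3 ratios that could be computed, since 3 planned ratios involved a gene not analysed here. In simulated data for ONC against Ctrl on 13566 genes, 12 of 50 genes changed 1.5-fold, 37 of 50 changed 2-fold and 47 of 50 changed 3-fold were called, with 6 of 13366 unchanged genes. Replicate libraries were kept as separate samples, since their reads differed beyond counting error (mean chi-square per gene 2.30 to 5.32). Members, lists and tests were chosen with earlier results of these data known, and a list is described by its counts and median without a test. The text names all members, their receptors and sheddases, the pathway genes called in ONC against Ctrl or TPEN against ONC, and for chosen members the 3 genes with the closest pattern. Some results that this rule names are not reported here. Transcripts were compared with blastn 2.17.0. Alternatives were other normalizations, filters, pseudocounts and thresholds, voom on reads, a replicate block and leaving out each library.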

Additional observations from a re-analysis of the deposited data

How the results depend on the processing

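The calls of Ccl3 and Ccl12 against Ctrl held under every alternative run. The number of members downregulated in TPEN against ONC, 1 in the report, was 0 when tested against a fold change of 1.5 and 0 to 1 when a library was left out. The log2 ratio of Cxcl12 to Cxcl14 no longer passed the permutation test over the 3 groups with a pseudocount of 1 RPKM or with quantile normalization. TPEN minus ONC was 0.17 and 0.78 there, and 0.52 to 0.80 with a library left out. The log2 ratio of Ccl3 to Ccl12 passed that test, unadjusted, with a pseudocount of 1 RPKM. Its TPEN minus ONC was -1.01 there, and -1.47 to -1.06 with a library left out. Neither result is a test of TPEN against ONC. Values that turned sign belonged to members not called in that comparison. For TPEN against ONC these were Ccl12 (-0.063 without ONC replicate 1, -0.036 without TPEN replicate 2, at most 0.21 with a library left out), Cxcl14 (0.0027 without ONC replicate 1, at the lowest -0.24) and Cx3cl1 (-0.039 without ONC replicate 1, -0.041 without TPEN replicate 2). For TPEN against Ctrl they were Cxcl16 (-0.019 without Ctrl replicate 2, -0.027 and -0.028 without TPEN replicates 1 and 3) and Cx3cl1 (-0.14 with quantile normalization, -0.0013 without Ctrl replicate 3, at most 0.29). For ONC against Ctrl they were Cx3cl1 (-0.28 with quantile normalization, -0.074 without Ctrl replicate 3, at most 0.18) and the sheddase gene Adam17 (-0.035 without Ctrl replicate 3, -0.0081 without ONC replicate 1, at most 0.13). Cxcl12 in TPEN against Ctrl was 0.22 and under the fold threshold with a pseudocount of 1 RPKM. Where not stated otherwise, the cause was not tested. Same-numbered libraries did not deviate together (correlations -0.062 to 0.027), so numbers do not pair them. A replicate block changed no call of a member (2 up in ONC against Ctrl, 1 down in TPEN against ONC, adjusted p = 0.0286 for Ccl3 by limma) and left the ratios at 0.65, -1.30 and -0.42. Of the values recomputed, 888 kept direction and call. Depth limited Cxcl12, Ccl12 and Cx3cl1, with at most 32 reads in a library.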
